A study of Mus musculus with 4 samples.

Results

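The genes described here are 10 regulators and enzymes of the first steps of B-cell development, out of 51912 Ensembl genes in the files. They are the transcription factors Ebf1, Pax5, Tcf3, Ikzf1, Foxo1 and Lef1, the interleukin-7 receptor gene Il7r, and the recombination genes Rag1, Rag2 and Dntt. The list was chosen from results of these same libraries: the FPKM values (fragments scaled to exon length and library size) of Fam122a KO 1 and 2 and of WT 1. The difference between these libraries is therefore given as a description. Where calls of a fit across all genes are counted for the 10, the counts stand beside the share over all genes and are no evidence for the list. All 10 were found in the files and all 10 passed the filter on low values. For Rag1 that was through the KO libraries alone, because it was under 1 FPKM in WT 1.

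RNA was measured in Fam122a KO and wild-type (WT) long-term haematopoietic stem cells (LT-HSCs) of C57BL/6 mice aged 8 to 12 weeks. There were 2 libraries per genotype, and each was a pool of cells from 3 animals. The cells were sorted as lineage-negative Sca1+ Kit+ without CD34 and Flk2. How Fam122a was deleted, and in which cells, is not given in the sources used here. Fam122a encodes an inhibitor of the phosphatase PP2A.

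In bone marrow, the E2A proteins encoded by Tcf3 and the zinc-finger factor Ikaros open lymphoid genes in multipotent progenitors. Signals through the interleukin-7 receptor, together with FOXO1, then turn on Ebf1, and EBF1 turns on Pax5, which holds cells in the B lineage. RAG1 and RAG2 cut the antigen receptor genes, and terminal transferase, encoded by Dntt, adds untemplated bases at the joints. LEF1 supports the growth and survival of pro-B cells.

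On GRCm38 (GENCODE M21), the factors lie at chr11:44617317-45008091 (Ebf1, plus strand), chr4:44524757-44710487 (Pax5, minus), chr10:80409514-80433647 (Tcf3, minus), chr11:11685003-11772926 (Ikzf1, plus), chr3:52268336-52353221 (Foxo1, plus) and chr3:131110471-131224356 (Lef1, plus). Il7r lies at chr15:9505788-9530176 (minus) and Dntt at chr19:41029275-41059525 (plus).

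WT 2 stood apart from the other libraries and is shown separately. Of all FPKM summed, 1.74% and 1.81% lay at assembled loci without an Ensembl gene in Fam122a KO 1 and 2, against 9.14% in WT 1 and 53.9% in WT 2. The median of 76 cytosolic ribosomal protein genes was 391 and 349 FPKM in Fam122a KO 1 and 2, 507 FPKM in WT 1 and 13.8 FPKM in WT 2. The low values implied 6840000 and 5950000 fragments in Fam122a KO 1 and 2, 4250000 in WT 1 and 2510000 in WT 2. Fam122a, the targeted gene, was listed at 0 in both KO libraries, against 18.4 FPKM in WT 1 and 7.46 FPKM in WT 2.

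The sequences directly upstream of Rag1, Rag2 and Dntt are shown because these recombination genes differed unevenly between KO and WT 1. Each is the 250 bases before the RefSeq start on GRCm38.p6, written 5′ to 3′ on the gene's strand, with matches to the motifs searched in capitals.
Rag1, chr2:101649533-101649782, minus strand: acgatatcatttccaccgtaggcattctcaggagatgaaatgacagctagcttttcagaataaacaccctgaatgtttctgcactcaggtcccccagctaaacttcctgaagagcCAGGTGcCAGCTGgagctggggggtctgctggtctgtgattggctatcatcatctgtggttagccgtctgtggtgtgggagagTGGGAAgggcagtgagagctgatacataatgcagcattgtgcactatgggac
Rag2, chr2:101624462-101624711, plus strand: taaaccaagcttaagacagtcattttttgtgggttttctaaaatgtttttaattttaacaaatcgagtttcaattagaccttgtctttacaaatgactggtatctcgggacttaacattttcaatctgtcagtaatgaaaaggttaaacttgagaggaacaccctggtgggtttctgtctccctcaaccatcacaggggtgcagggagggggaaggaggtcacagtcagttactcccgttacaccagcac
Dntt, chr19:41029025-41029274, plus strand: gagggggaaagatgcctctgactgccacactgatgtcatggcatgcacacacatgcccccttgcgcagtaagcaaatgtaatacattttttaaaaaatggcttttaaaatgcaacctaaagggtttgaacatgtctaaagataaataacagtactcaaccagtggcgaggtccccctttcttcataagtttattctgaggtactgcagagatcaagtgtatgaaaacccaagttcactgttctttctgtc

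All 10 genes had an entry in the RefSeq promoter table, with 15 windows in all because Lef1, Ebf1 and Ikzf1 have several starts. Windows were searched on both strands for CAGGTG and CAGCTG (E-boxes), CCCNNGGG (EBF type), TGGGAA (Ikaros type), CTTTGA (TCF/LEF type) and TGTTTAC (FOXO type). CAGGTG lay in 1 of the 15 windows, that of Rag1, against 17.2% of all 32851 windows. CAGCTG lay in 2, of Rag1 and Lef1, against 13.0% of all. CCCNNGGG lay in 2, of Foxo1 and Ikzf1, against 11.8%. TGGGAA lay in 2, of Ebf1 and Rag1, against 21.6%, and CTTTGA lay in 1, a further Lef1 window, against 13.8%. TGTTTAC lay in 0, against 3.17% of all. The Rag1 window held 3 of these matches, while the windows of Rag2 and Dntt held none. A match is a run of letters, and binding was not measured.

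All 10 genes were higher in both Fam122a KO libraries than in WT 1, although the ratio ran from 20.3 for Lef1 to 1.26 for Pax5. Lef1, Ebf1 and Dntt had KO means of 20.3, 15.6 and 10.8 times WT 1. Rag2 and Tcf3 followed at 6.56 and 4.17 times. Rag1, Il7r, Foxo1 and Ikzf1 lay between 2.01 and 2.76 times, and Pax5 was at 1.26 times. Of all 13848 genes tested, 48.5% had both KO libraries above WT 1. The filter let in genes expressed in the KO libraries alone, but none expressed in WT 1 alone. Shares over all genes therefore leave out genes found only in WT 1. With no filter, the median log2 difference over all genes was -0.23, against 0.12 with it. At least 2-fold in both KO libraries were 6 of the 10 (Ebf1, Tcf3, Lef1, Il7r, Rag2 and Dntt), against 8.86% of all genes. Because these values chose the list, nothing is read from the counts. In pooled cells, fewer cells of a type and less RNA per cell cannot be told apart.

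**Figure D1:**
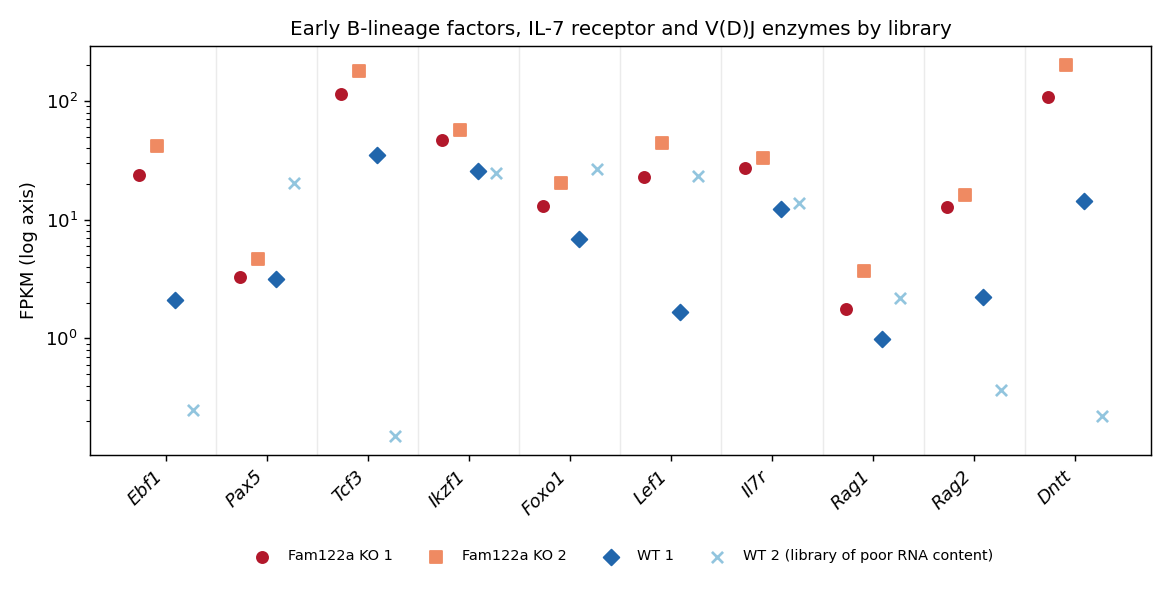
Level of each of the 10 genes in FPKM (vertical log axis) in Fam122a KO 1 and 2, WT 1 and WT 2, 1 point per library. Both KO points lie above the WT 1 point in all 10 genes, narrowly for Pax5 (3.27 and 4.62 against 3.14 FPKM), while the WT 2 points scatter from 0.15 to 26.95 FPKM.

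Among the transcription factors, Ebf1, the factor that commits progenitors to the B lineage, was at 23.9 and 41.5 FPKM in Fam122a KO 1 and 2, against 2.1 FPKM in WT 1 and 0.25 FPKM in WT 2. Both KO libraries were far above both WT libraries. Its difference on the log2(FPKM + 1) scale, KO minus WT 1, was 3.39 (SE 0.41). The WT 1 value rested on about 84.9 fragments, which gives an exact Poisson 95% interval of 1.68 to 2.60 FPKM, for counting error only.

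Lef1, a partner of beta-catenin at WNT target genes, was at 23.1 and 44.7 FPKM in Fam122a KO 1 and 2, against 1.67 FPKM in WT 1 and 23.2 FPKM in WT 2. The KO values thus stood well above WT 1, whereas WT 2 lay within the KO range. The log2 difference from WT 1 was 3.63 (SE 0.47). Gm43352, a transcript on the opposite strand that overlaps Lef1 exons, was at 4.87 and 5.81 FPKM in the KO libraries, against 0.34 FPKM in WT 1 and 0.14 FPKM in WT 2. The kit does not mark strand, so reads of the 2 genes cannot be told apart.

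Tcf3 was at 114 and 180 FPKM in Fam122a KO 1 and 2, against 35.2 FPKM in WT 1 and 0.15 FPKM in WT 2, with a log2 difference from WT 1 of 1.99 (SE 0.32). It was the highest of the 10 genes in WT 1 and the lowest in WT 2. Ikzf1, which encodes Ikaros, was at 46.8 and 56.4 FPKM in the KO libraries, against 25.6 FPKM in WT 1 and 24.9 FPKM in WT 2 (log2 difference 0.98, SE 0.20). Its WT libraries were close to each other, and both KO libraries lay above both.

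Foxo1, a factor held out of the nucleus by AKT, was at 12.9 and 20.2 FPKM in Fam122a KO 1 and 2, against 6.84 FPKM in WT 1 and 26.95 FPKM in WT 2 (log2 difference from WT 1 1.13, SE 0.36). WT 2 was above both KO libraries. Pax5 was at 3.27 and 4.62 FPKM in the KO libraries, against 3.14 FPKM in WT 1 and 20.3 FPKM in WT 2. Its log2 difference from WT 1 was 0.24 (SE 0.38), smaller than its error, and the lower KO value lay inside the counting interval of WT 1 (2.59 to 3.77 FPKM). Pax5 exons overlap exons of 5730488B01Rik on the opposite strand, which was at 1.21 and 1.46 FPKM in the KO libraries, against 0.34 FPKM in WT 1 and 0.19 FPKM in WT 2.

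Il7r, the receptor subunit specific to interleukin-7 and TSLP signalling, was at 27.4 and 32.8 FPKM in Fam122a KO 1 and 2, against 12.3 FPKM in WT 1 and 13.9 FPKM in WT 2. Both KO libraries were above both WT libraries, which were alike (log2 difference from WT 1 1.22, SE 0.22).

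Of the recombination genes, Dntt was at 107 and 203 FPKM in Fam122a KO 1 and 2, against 14.4 FPKM in WT 1 and 0.22 FPKM in WT 2 (log2 difference from WT 1 3.27, SE 0.43). Rag2 was at 12.9 and 16.2 FPKM in the KO libraries, against 2.21 FPKM in WT 1 and 0.37 FPKM in WT 2 (2.26, SE 0.31). In both genes the KO libraries stood apart from both WT libraries. Rag1 was at 1.75 and 3.72 FPKM in the KO libraries, against 0.99 FPKM in WT 1 and 2.18 FPKM in WT 2 (0.86, SE 0.51). WT 2 lay between its KO values, and the WT 1 value rested on about 26.8 fragments.

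The recombinase pair was uneven. On the length-scaled FPKM level, Rag2 was 7.34 and 4.34 times Rag1 in Fam122a KO 1 and 2, against 2.23 times in WT 1 and 0.17 times in WT 2. The genes are neighbours on GRCm38 at chr2:101624718-101632529 (Rag2, plus strand) and chr2:101638282-101649501 (Rag1, minus strand). B230118H07Rik has exons that overlap exons of both. It was at 24.7 and 22.7 FPKM in the KO libraries, against 47.4 FPKM in WT 1 and 72.7 FPKM in WT 2, so it was higher in WT. Its part in the Rag values was not tested.

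Ordered by KO mean, the 10 genes ran from Dntt (155 ± 67.7 FPKM, SD, n = 2) and Tcf3 (147 ± 46.4) through Ikzf1 (51.6 ± 6.85), Lef1 (33.9 ± 15.3), Ebf1 (32.7 ± 12.4) and Il7r (30.1 ± 3.78). Foxo1 (16.6 ± 5.13), Rag2 (14.5 ± 2.34), Pax5 (3.95 ± 0.95) and Rag1 (2.74 ± 1.39) followed. KO ranges of neighbours overlapped within Dntt and Tcf3, within Lef1, Ebf1 and Il7r, within Foxo1 and Rag2, and within Pax5 and Rag1. Dntt and Tcf3, and likewise Lef1, Ebf1 and Il7r, changed order between the KO libraries, so their order is not set by the data. Foxo1 was above Rag2 in each KO library, narrowly in Fam122a KO 1 (12.93 against 12.85 FPKM). Pax5 was above Rag1 in each. In WT 1, Tcf3 and Ikzf1 came first, and Ebf1 and Lef1 were at ranks 8 and 9 of 10, against ranks 5 and 4 by KO mean. WT 2 had Foxo1 first and Tcf3 last.

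The 2 KO libraries also differed from each other in one direction. Fam122a KO 2 was above Fam122a KO 1 in 10 of the 10 genes, against 52.8% of all genes tested. The ratio of KO 2 to KO 1 was highest for Rag1 (2.13), Lef1 (1.94), Dntt (1.89) and Ebf1 (1.73) and lowest for Ikzf1 (1.21) and Il7r (1.19). The median difference of KO 2 minus KO 1 was 0.63 on the log2 scale over the 10 genes, 0.68 over 7 pro-B and pre-B markers and 0.02 over all genes tested. With 1 pool per library, a difference between pools and one between libraries cannot be told apart.

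**Figure D2:**
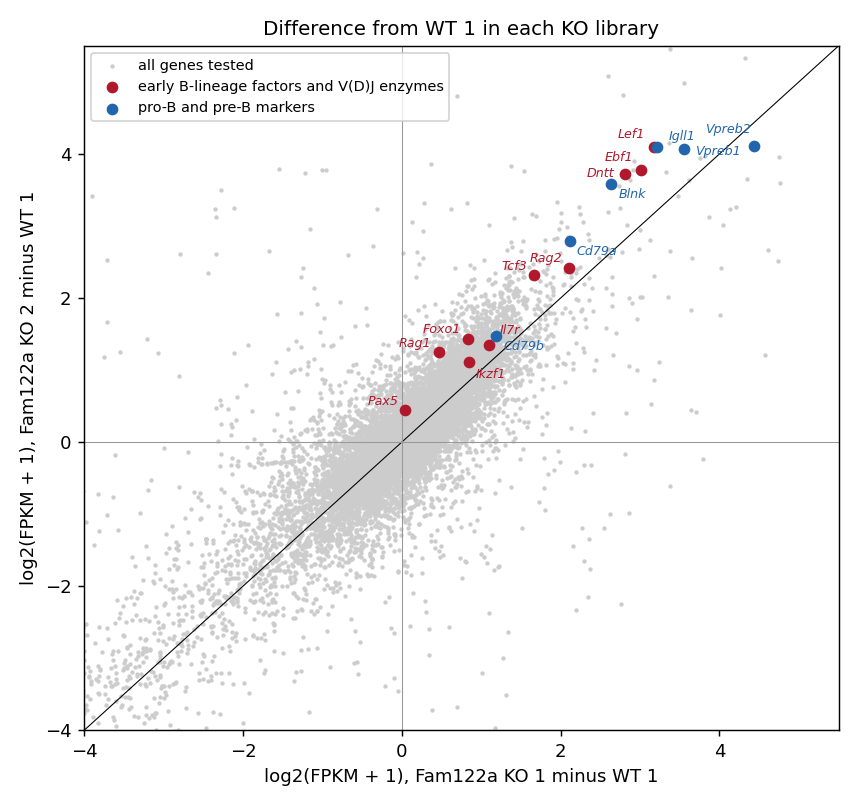
Difference in log2(FPKM + 1) from WT 1 in Fam122a KO 1 (horizontal) and Fam122a KO 2 (vertical) for the genes tested (grey), the 10 genes (red) and 6 of the 7 pro-B and pre-B markers (blue), with the line of equal differences. The 10 genes lie above that line, Lef1, Ebf1 and Dntt sit among the pro-B markers, and Pax5 sits near the origin. The axes end at -4 and 5.5, which leaves out 229 genes.

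In limma across all genes, 0.181% of genes were called higher and 1.42% lower in Fam122a KO 1 and 2 than in WT 1 at an adjusted p under 0.05. None of the 10 genes was called in that fit, and 8 of the 10 were higher at an unadjusted p under 0.05, against 17.6% of all genes higher and 11.5% lower. Calls moved with the scaling. After scaling to equal Ensembl totals, 7 of the 10 (Ebf1, Tcf3, Ikzf1, Lef1, Il7r, Rag2 and Dntt) were called higher, against 8.49% of all genes. With a pseudocount of 5 FPKM, 2 of the 10 (Ebf1 and Dntt) were, against 0.729%. Calls over all genes were 25 higher and 196 lower as deposited and 1183 higher and 571 lower at equal totals. The median log2 difference was 1.61 over the 10 genes and 0.12 over all genes as deposited, and 1.83 and 0.33 at equal totals. These calls used the contrast that chose the list, so they are counts only. WT 1 was a single library, assumed to vary like the KO pair.

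Against WT 2 the picture was split. Both KO libraries were above both WT libraries in 6 of the 10 (Ebf1, Tcf3, Ikzf1, Il7r, Rag2 and Dntt), against 40.6% of all genes. In the fit of both KO libraries against WT 2 alone, these same 6 were called higher and Pax5 was called lower, against 57.4% and 22.7% of all genes. Pax5, Foxo1, Lef1 and Rag1 were 6.45, 3.94, 13.9 and 2.20 times higher in WT 2 than in WT 1. Tcf3, Dntt, Ebf1 and Rag2 in WT 2 were between 0.00427 and 0.167 times their WT 1 level. Long, intron-rich genes were lower as a class in KO than in either WT library. For the 1711 coding genes spanning over 16 times the bases of their exons, the median was 9.16 and 9.49 FPKM in the KO libraries, against 17.9 FPKM in WT 1 and 42.0 FPKM in WT 2. For the 4528 coding genes spanning under 4 times their exons, it was 21.7 and 22.2 FPKM in the KO libraries, against 16.5 FPKM in WT 1 and 1.59 FPKM in WT 2. Median log2 differences from WT 1 were -0.39 and 0.31 in these classes. Among the 10 genes the ratio of span to exons was 40.1 for Ebf1, 20.98 for Pax5, 15.2 for Ikzf1 and 13.2 for Dntt. It was 13.0 for Lef1, 9.80 for Foxo1, 5.98 for Tcf3, 5.23 for Il7r, 2.28 for Rag2 and 1.70 for Rag1. In WT 2, Ikzf1, Dntt and Lef1 stood at 0.97, 0.015 and 13.9 times their WT 1 level. The part of the span ratio in the values of any gene named here was not tested.

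B-lineage genes downstream of these factors, listed with earlier results of these data known, were described next. The list held 18 genes, many of them known targets of EBF1, PAX5 or E2A, and all were tested. Of the 18, 17 had a log2 difference above 0, against 56.1% of all genes, and 16 had both KO libraries above WT 1, against 48.5%. The median was 1.55, against 0.12 over all genes. In limma 3 were called higher at an adjusted p under 0.05, against 0.181% of all genes, and 0 lower, against 1.42%. These were Vpreb1, Vpreb2 and Vpreb3, the last of which is expressed in B-cell precursors. Vpreb1 and Vpreb2 encode part of the surrogate light chain. Vpreb1 was at 317 and 451 FPKM in Fam122a KO 1 and 2, against 26.0 FPKM in WT 1 and 6.94 FPKM in WT 2 (log2 difference 3.81, SE 0.27). Vpreb1 and Vpreb2 are close copies, so reads may be split between them. The calls ended with a pseudocount of 0.1 FPKM, a filter of 5 FPKM or WT 2 included, where limma called no gene at all. At the other end, Fcrla was at 6.69 and 6.80 FPKM in the KO libraries, against 8.96 FPKM in WT 1, and was listed at 0 in WT 2. Bach2, a repressor of plasma cell genes, was at 17.8 and 35.2 FPKM in the KO libraries, against 21.8 FPKM in WT 1 and 113 FPKM in WT 2.

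**Figure D3:**
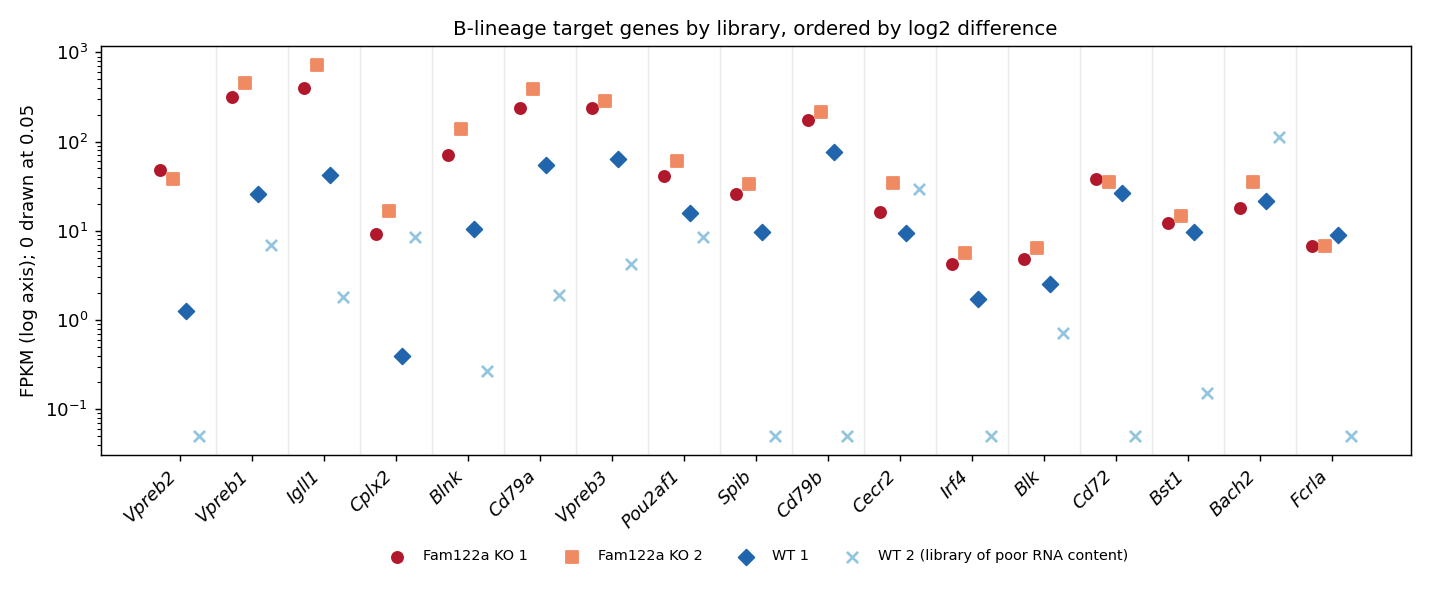
Level in FPKM (vertical log axis, values of 0 drawn at 0.05) of 17 of the 18 B-lineage genes in Fam122a KO 1 and 2, WT 1 and WT 2, 1 point per library, ordered by the log2 difference of KO minus WT 1. Genes at the left, from Vpreb2 to Blnk, have both KO points far above WT 1, and for Fcrla at the right both KO points lie below WT 1.

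Relative to Ebf1, the surrogate light chain gene Igll1 was 16.7 and 17.6 times as high in Fam122a KO 1 and 2, against 20.0 times in WT 1 and 7.24 times in WT 2. The Igll1 level itself was 400 and 732 FPKM in the KO libraries, against 42.0 FPKM in WT 1 and 1.81 FPKM in WT 2. The Igll1 to Ebf1 ratio thus differed little between KO and WT 1 while both genes were higher in KO. This pair was chosen after its values were seen.

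By the distance between pairs of log2 differences (KO 1 minus WT 1 and KO 2 minus WT 1), the coding genes nearest to Ebf1 included Gfra2, Cplx2, Dntt and Akap12, at distances of 0.097 to 0.32. Those nearest to Dntt were Cplx2, Gfra2, Fxyd6, Ebf1 and Blnk, at 0.11 to 0.22. Blnk encodes an adaptor of the B-cell receptor. Gfra2, Cplx2 and Fxyd6 were under 1 FPKM in WT 1 (0.57, 0.40 and 0.26 FPKM) and passed the filter through the KO libraries alone. Likeness over 3 libraries is a description, taken from 9723 candidate genes on the values that chose the list.

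Partners and family members of the 10 genes come next. At an unadjusted p under 0.05, 17.6% of all genes were higher and 11.5% lower. Of 8 E-protein partners and ID inhibitors tested, 0 were called in limma (1 higher and 0 lower at an unadjusted p under 0.05) and the median log2 difference was 0.31. Id3, which encodes an inhibitor of E proteins, was at 49.1 and 35.9 FPKM in Fam122a KO 1 and 2, against 9.51 FPKM in WT 1 and 0.76 FPKM in WT 2 (2.03, SE 0.27). Id2, a second such inhibitor, was at 103 and 56.5 FPKM in the KO libraries, against 87.5 FPKM in WT 1 and 3.77 FPKM in WT 2 (-0.19, SE 0.41). Id3 was therefore above WT 1 in both KO libraries, and the Id2 values of KO lay on both sides of WT 1.

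In the Ikaros family and its NuRD partners, 8 genes were tested, limma called 0 (unadjusted, 3 higher and 1 lower, against 17.6% and 11.5% of all genes) and the median was 0.31. Mta2, a NuRD subunit, was at 127 and 143 FPKM in Fam122a KO 1 and 2, against 62.3 FPKM in WT 1 and 1.3 FPKM in WT 2 (1.10, SE 0.16), while Ikzf2, which encodes Helios, was at 9.85 and 10.4 FPKM, against 17.9 FPKM in WT 1 and 69.95 FPKM in WT 2 (-0.76, SE 0.24). The FOXO family and its AKT control had 9 genes tested, 0 called in limma (unadjusted, 7 higher and 0 lower, against the same shares) and a median of 0.76. Pik3cd, a PI3-kinase catalytic subunit of leukocytes, was at 95.1 and 87.9 FPKM in the KO libraries, against 41.6 FPKM in WT 1 and 14.6 FPKM in WT 2 (1.12, SE 0.16). Foxo3 was at 34.8 and 10.3 FPKM in the KO libraries, against 16.9 FPKM in WT 1 and 17.4 FPKM in WT 2, so its KO values did not lie on one side. Of 7 TCF/LEF family genes tested, limma called 0 (unadjusted, 2 higher and 0 lower, against the same shares, with a median of 0.67). Tcf7, the T-lineage relative of Lef1, was at 14.1 and 11.9 FPKM in the KO libraries, against 4.12 FPKM in WT 1 and 26.2 FPKM in WT 2 (1.45, SE 0.29).

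Genes of interleukin-7 receptor signalling had 12 members tested, 0 called in limma (unadjusted, 6 higher and 0 lower, against 17.6% and 11.5% of all genes) and a median of 0.55. Ccnd3, the cyclin D3 gene, was at 682 and 974 FPKM in Fam122a KO 1 and 2, against 333 FPKM in WT 1 and 25.1 FPKM in WT 2 (1.29, SE 0.28). Il2rg, the common gamma chain that pairs with the Il7r product, was at 130 and 96.8 FPKM in the KO libraries, against 109 FPKM in WT 1 and 0.27 FPKM in WT 2 (0.037, SE 0.24). The specific receptor chain was thus above WT 1 in both KO libraries, and the shared chain lay on both sides of it.

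For the joining step after RAG cleavage, 16 genes of end joining and RAG cofactors were tested, limma called 0 (unadjusted, 2 higher and 1 lower, against 17.6% and 11.5% of all genes) and the median was 0.31. Poll, the gene of DNA polymerase lambda, was at 10.9 and 11 FPKM in Fam122a KO 1 and 2, against 3.60 FPKM in WT 1 and 0.38 FPKM in WT 2 (1.38, SE 0.28). Xrcc6, which encodes Ku70, was at 82.6 and 76.8 FPKM in the KO libraries, against 43.3 FPKM in WT 1 and 0.86 FPKM in WT 2 (0.86, SE 0.16). Xrcc5, the Ku80 gene, was at 9.82 and 11.8 FPKM, against 14.3 FPKM in WT 1 and 19.6 FPKM in WT 2 (-0.38, SE 0.27). Atm, a damage kinase, was at 8.96 and 5.77 FPKM, against 29.7 FPKM in WT 1 and 41.4 FPKM in WT 2 (-1.90, SE 0.35). Of the 16 joining genes, 10 had both KO libraries above WT 1, against 48.5% of all genes, and 4 had both below, against 35.7%.

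Of 14 upstream lymphoid priming genes tested, limma called 0 (unadjusted, 5 higher and 2 lower, against 17.6% and 11.5% of all genes, with a median of 0.46). Satb1, a chromatin organiser, was at 26.5 and 28.8 FPKM in Fam122a KO 1 and 2, against 12.1 FPKM in WT 1 and 37.1 FPKM in WT 2 (1.13, SE 0.21). Runx1 was at 29.4 and 41.0 FPKM in the KO libraries, against 16.7 FPKM in WT 1 and 63.7 FPKM in WT 2 (1.01, SE 0.28). Ccr9, a chemokine receptor gene, was at 2.19 and 3.49 FPKM, against 28.8 FPKM in WT 1 and 9.44 FPKM in WT 2 (-2.97, SE 0.37), and Zfp521 was at 4.81 and 5.78 FPKM, against 10.98 FPKM in WT 1 and 76.0 FPKM in WT 2 (-0.93, SE 0.31).

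**Figure D4:**
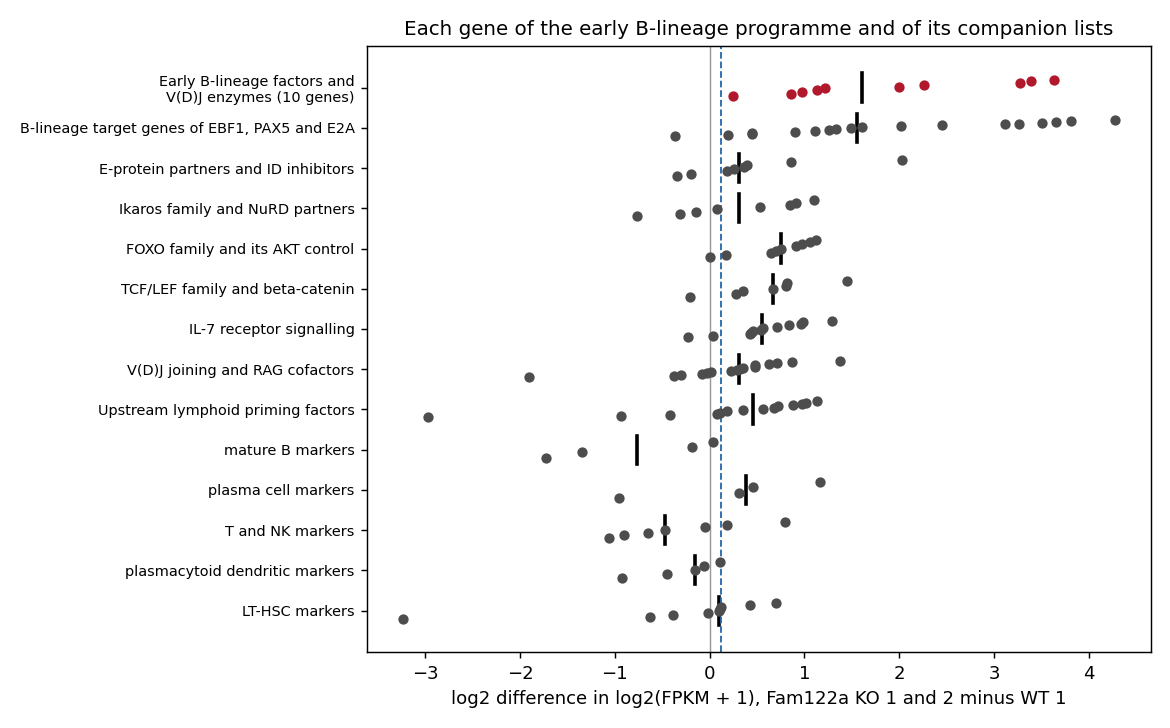
Difference in log2(FPKM + 1), Fam122a KO 1 and 2 minus WT 1 (horizontal), for each tested gene of the 10 (red) and of 13 companion lists (grey), with list medians as black bars, 0 as a solid line and the median of all genes tested as a dashed line. The 10 genes and the B-lineage targets have medians of 1.61 and 1.55, and the other lists drawn lie between -0.77 and 0.76. The pro-B and pre-B markers are not drawn, since most are among the targets.

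Markers of other cells were read beside these values. The 7 pro-B and pre-B markers, 7 of 7 above WT 1 in both KO libraries against 48.5% of all genes, summed to 1311 and 2063 FPKM in Fam122a KO 1 and 2, against 217 FPKM in WT 1 and 10.9 FPKM in WT 2. The 6 mature B markers summed to 13.0 and 12.5 FPKM in the KO libraries, against 27.03 FPKM in WT 1, and 0 of 4 tested had both KO libraries above WT 1, against the same share. Ms4a1, the CD20 gene, was at 2.12 and 0.89 FPKM, against 7.06 FPKM in WT 1 and 2.57 FPKM in WT 2. Plasma cell markers summed to 387 and 502 FPKM in the KO libraries, against 638 FPKM in WT 1. Jchain, the immunoglobulin joining chain gene, made up most of it, at 213 and 289 FPKM in the KO libraries, against 482 FPKM in WT 1 and 2.06 FPKM in WT 2. Of the 4 plasma markers tested, 3 (Mzb1, Sdc1 and Xbp1) had both KO libraries above WT 1, against 48.5% of all genes, and the median log2 difference was 0.39. Prdm1, the remaining plasma marker, was left untested because both KO libraries were under 1 FPKM. It was at 0.96 and 0.87 FPKM in the KO libraries, against 22.7 FPKM in WT 1 and 35.2 FPKM in WT 2. The mature B markers Cr2 and Fcer2a went untested for the same reason, with both KO values below WT 1.

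The 9 T and NK markers summed to 397 and 318 FPKM in Fam122a KO 1 and 2, against 651 FPKM in WT 1, most of it Nkg7 (378 and 299 FPKM, against 628 FPKM in WT 1 and 3.42 FPKM in WT 2). Of the 7 T and NK markers tested, 2 had both KO libraries above WT 1, against 48.5% of all genes, and 3 had both below, against 35.7%. Cd4, the highest by log2 difference, was at 6.09 and 6.75 FPKM in the KO libraries, against 3.28 FPKM in WT 1 and 1.23 FPKM in WT 2. Ptcra, which marks T-cell precursors, was untested and low throughout. It was listed at 0 in both KO libraries and was at 0.79 FPKM in WT 1 and 0.34 FPKM in WT 2. The 5 plasmacytoid dendritic markers, a cell type that can also carry Dntt and Rag RNA, summed to 211 and 253 FPKM in the KO libraries, against 235 FPKM in WT 1. Ly6d, also in the list of lymphoid priming genes, made up most of it (116 and 165 FPKM, against 129 FPKM in WT 1). Of these 5, 0 had both KO libraries above WT 1, against 48.5% of all genes, and 2 had both below, against 35.7%. Limma called 2 of the 7 pro-B and pre-B markers, Vpreb1 and Vpreb2, higher. In the mature B, plasma, T and NK and dendritic lists it called 0, with 0 higher and 4 lower of 20 tested at an unadjusted p under 0.05, against 17.6% and 11.5% of all genes. The part of pro-B or pre-B cells in the levels of the 10 genes was not tested.

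Stem cell markers were present beside the lymphoid ones. The 10 LT-HSC markers summed to 480 and 485 FPKM in Fam122a KO 1 and 2, against 507 FPKM in WT 1 (median log2 difference 0.10 over 9 tested). Limma called 0 of the 9 (unadjusted, 0 higher and 2 lower, against 17.6% and 11.5% of all genes). Tek, the angiopoietin receptor gene, was at 4.43 and 2.74 FPKM in the KO libraries, against 41.5 FPKM in WT 1 and 79.7 FPKM in WT 2 (-3.24, SE 0.36). Procr was at 15.8 and 19.2 FPKM in the KO libraries, against 17.6 FPKM in WT 1, and was listed at 0 in WT 2. RNA of genes that the sort selects against was also found: Cd34 was at 87.7 and 62.1 FPKM, against 179 FPKM in WT 1 and 18.2 FPKM in WT 2, and Flt3, which encodes Flk2, was at 36.2 and 24.7 FPKM, against 26.2 FPKM in WT 1 and 16.1 FPKM in WT 2.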

How the data were processed

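The authors deposited FPKM values, 1 per feature and library; the files have no header, so this unit was inferred from the values. Per the labels' protocols, RNA from pooled sorted cells went through the SMART-Seq v4 kit, and the replicates are called biological. According to the submitters' processing notes, STAR 2.7.1a and HISAT2 2.1.0 were among the tools used; which of them led to the values is not stated there. Unannotated loci stayed out of the tests. Coordinates and lengths came from GENCODE M21 (GRCm38).

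Fam122a KO 1 and 2 were compared with WT 1 on log2(FPKM + 1) by limma 3.58.1 in R 4.3.3, with its trend option. This scale understates differences of low genes. Genes needed 1 FPKM in 2 of the 3 libraries, and Benjamini-Hochberg adjusted p-values over all 13848 genes were called under 0.05. The fit was tested on simulated data in which all 3 libraries had the same spread, taken from limma's own fit. That test cannot show whether WT 1 varied like the KO pair.

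Depth was estimated from single-exon genes whose low values fall on steps of 1 fragment, of which 81.6% to 88.5% lay within 0.1 of a whole number. The depth was chosen to bring these same values near whole numbers, so that share is no separate check. A gene's fragment number uses its total exonic length and is approximate. The members and lists were chosen with earlier results of these data known. Of each companion list, the rule named the 2 highest and the 2 lowest log2 differences among tested genes at 5 FPKM or more in 1 of the 3 libraries, of which some are given; for Ebf1 and Dntt it named the 5 nearest coding genes. One gene of the B-lineage lists is counted in them but not reported here. Vpreb3, Igll1, Procr, Ptcra, Prdm1, Cr2, Fcer2a and the overlapping transcripts were named after their values were seen. Alternatives covered the pseudocount, filter, scaling, threshold, WT 2, the replicate block and each library left out.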

Additional observations from a re-analysis of the deposited data

How the results depend on the processing

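Each of the 10 genes kept a log2 difference above 0 in every fit against WT 1 alone in which it was tested, also with either KO library left out. Both KO values were above WT 1 in all 10, on the values that chose the list. Changing the pseudocount or filter, leaving out a KO library or scaling to equal totals could therefore not change the sign. Quantile normalization was the only setting that could have. With WT 2 included, Pax5 was at -0.94, and against WT 2 alone Pax5 was at -2.12 and Foxo1 at -0.70. The median over the 10 genes was 1.61, and 1.22 with a pseudocount of 5 FPKM and 2.13 over the 8 genes left by a filter of 5 FPKM. Without Fam122a KO 1 or 2 it was 2.32 or 1.67 over 9 genes, since Rag1 did not pass the filter there. Leaving out WT 1, and so using WT 2, gave the lowest, 1.04 over all 10.

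Counts over all genes moved widely with the setting. From 25 higher and 196 lower, they went to 904 and 796 at an adjusted p under 0.1, 101 and 524 with a pseudocount of 5 FPKM, 761 and 9265 with no filter, 1183 and 571 at equal totals, 15 and 155 after quantile normalization, and 7971 and 3155 against WT 2 alone. limma called 0 and 0 with a pseudocount of 0.1 FPKM (2481 and 1457 at an unadjusted p under 0.05), with a filter of 5 FPKM (2288 and 869) and with WT 2 included (233 and 3837). The cause was not tested. With 1 KO library left out, 1 library was set against 1 and values carry no test. With a filter of 5 FPKM no mature B marker was left.

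The replicate block could be fitted with all 4 libraries. It called 0 higher and 0 lower (301 and 3900 at an unadjusted p under 0.05) and left the median over the 10 genes at 1.59. The labels give same-numbered libraries only a shared number. Their deviations correlated at 0.055 across 18214 genes. WT 2 stood apart from the other libraries and enters the WT deviation, so this value cannot show whether same-numbered libraries were paired. At the implied depth, Rag1 (26.8 fragments in WT 1) and Rag2 (29.9) rest on few fragments.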
